A study of Homo sapiens with 9 samples.

Results

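Counts of KLHDC7B, IL1RL1, BEST1 and LINC00304 were compared in cells of the established human gastric carcinoma line SNU5 after treatment with ramucirumab carried on gold particles or given alone. The 4 genes, of 60880 gene IDs counted, were chosen by their counts, which were near 0 with gold particles and above 100 with ramucirumab alone. Their levels against ramucirumab alone are therefore a description, and no test is given for them. Ramucirumab is a therapeutic antibody that blocks VEGFR2. The NR group received AuNR-PEG-Ab, in which gold nanorods carry the antibody through PEG, and the SP group received AuSP-PEG-Ab, the same with gold nanospheres. The Ab group received ramucirumab with no particle. All 3 groups had 8 μg/mL of antibody for 24 h, and each had 3 libraries, 9 in all. An untreated group and particles without antibody were not part of these libraries, so a level "with gold" is set only against the antibody alone.

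IL1RL1 encodes ST2, the receptor that binds interleukin 33 and signals through MyD88 and IRAK kinases together with the co-receptor IL1RAP. It is best known from mast cells and lymphocytes, and a soluble form acts as a decoy. BEST1 encodes bestrophin 1, a calcium-activated chloride channel best known from the retinal pigment epithelium. KLHDC7B encodes a protein with kelch repeats, which fold into a propeller that binds other proteins, and LINC00304 is a long non-coding RNA.

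For replicates 1, 2 and 3, the NR libraries held 25735410, 13863155 and 15943980 counts in total. The SP libraries held 21682836, 22914759 and 20601906, and the Ab libraries held 19566064, 26318227 and 21031024. A count of 3, taken as the floor below which a gene was not distinguished from 0, was 0.114 to 0.216 CPM (counts scaled to a common library total). Nothing in the labels says whether libraries of a group came from separate cultures. The paper calls the replicates biological, and its reporting summary gives at least 3 independent repeats for in vitro experiments. The p-values measure only the spread between these libraries. Libraries NR 2 and NR 3 stood apart in 5 genes with at most 6 counts in both and at least 40 in each of the other 7 libraries, namely PDGFRA, KIT, RET, ALK and ENSG00000233995. With a minimum of 20 counts in the other 7 there were 7 such genes, the added ones being the matrix genes COL1A2 and SPARC. COL1A2, for which Ab 3 was also low, had 37, 0 and 0 counts in NR, 49, 49 and 43 counts in SP, and 198, 278 and 33 counts with the antibody alone. KIT, for example, had 167 counts in NR 1, 1 in NR 2 and 0 in NR 3. What sets these libraries apart was not tested, and results that rest on NR are also given with NR 1 as the sole NR library where that changes them.

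KLHDC7B had the lowest counts of the 4 genes with gold. Replicates 1, 2 and 3 held 1, 1 and 0 counts in NR, and SP held 3, 1 and 6. In Ab it had 189, 276 and 168 counts. All NR libraries and 2 of the 3 SP libraries were at or under the floor, and every Ab library was far above them. The mean levels were 0.0370 ± 0.0360 CPM (SD, n = 3) in NR, 0.158 ± 0.126 in SP and 9.37 ± 1.22 in Ab. The NR group thus held 2 counts against 633 in Ab, a ratio of 262 after scaling with a 95% exact binomial interval of 72.3 to 2170. With each NR library set at the floor of 3 counts, the fold of Ab over NR was 54.0, and it was 79.9 with NR 1 as the sole NR library. Against SP the Ab level was 59.3 times higher, with an interval on the summed counts of 33.3 to 129. These intervals cover counting error only.

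IL1RL1, the ST2 receptor, was counted 20, 3 and 5 times in NR libraries and 18, 14 and 5 times in SP libraries. The Ab libraries held 397, 478 and 430 counts. NR 1 was high among the NR libraries, SP 3 was low among the SP libraries, and both gold groups lay far below Ab. The mean was 0.437 ± 0.303 CPM in NR (SD, n = 3), 0.561 ± 0.295 in SP and 19.6 ± 1.40 in Ab. The Ab level was 45.0 times that of NR and 35.0 times that of SP. The NR value turned on single libraries, being 74.3 without NR 1 and 25.1 with NR 1 as the sole NR library.

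BEST1, the chloride channel, held 26, 15 and 9 counts with nanorods, 17, 18 and 19 with nanospheres, and 441, 538 and 428 with the antibody alone. No gold library was at the floor, and the SP libraries were close together. Mean levels were 0.886 ± 0.282 CPM in NR, 0.831 ± 0.0822 in SP and 21.1 ± 1.28 in Ab (SD, n = 3). The Ab level was 23.8 times that of NR and 25.4 times that of SP. Of the 8688 bp of BEST1 exons, 14.6% were shared with FTH1 on the other strand, and whether counting used strand is not stated. FTH1, the ferritin heavy chain, had 20269 to 43839 counts in every library.

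LINC00304 held 4, 5 and 1 counts with nanorods, 10, 11 and 9 with nanospheres, and 121, 141 and 104 with the antibody alone. NR 3 was under the floor, and the SP libraries lay together above the NR libraries. Mean levels were 0.193 ± 0.152 CPM in NR, 0.459 ± 0.0208 in SP and 5.49 ± 0.632 in Ab (SD, n = 3). The Ab level was 28.5 times that of NR and 12.0 times that of SP. Without NR 2 the first of these was 50.2. Exons of LINC00304 shared 29.7% of their 3961 bp with ACSF3 on the same strand, so its counts are uncertain by an amount that was not measured.

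In all 4 genes, every NR and every SP library was below every Ab library, which the choice of genes fixed. Across all genes tested, 35.8% had every NR library below every Ab library and 36.0% had every SP library below every Ab library. Calls required an adjusted p no higher than 0.05 together with a 2-fold change. By this rule 10.3% of 15009 genes were called lower and 12.4% higher in NR against Ab, and 10.6% of 15068 genes lower and 12.6% higher in SP against Ab. NR and SP were compared with the same Ab libraries, so the pairs of values are not independent of each other. In a bulk sample, fewer cells that express a gene and less RNA per cell cannot be told apart.

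Per length of exon, IL1RL1 had the highest level in Ab, at 3.42 CPM per kb, followed by BEST1 at 2.43, KLHDC7B at 1.83 and LINC00304 at 1.39. The median of 14921 genes was 4.29 CPM per kb. These levels were at the percentiles 45.0, 38.2, 33.2 and 28.6 of the Ab group, and the genes were not among its abundant genes. With gold, the group means of the 4 genes were 1.69% (KLHDC7B in SP) to 8.36% (LINC00304 in SP) of their Ab means, beside KLHDC7B in NR, for which 3 counts in each library would be 1.85%.

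The fall was ranked among the 10678 genes with a mean of at least 100 counts in Ab, by the ratio of mean CPM, with a group at or under 3 counts in every library set at 3. KLHDC7B was rank 1 in NR, where its ratio is a bound, and in SP. IL1RL1 was rank 2 in NR and rank 3 in SP, LINC00304 was rank 4 in NR and rank 17 in SP, and BEST1 was rank 6 in NR and rank 5 in SP. With NR 1 as the sole NR library, the order in NR changed to LINC00304 at rank 4 (a ratio of 35.1), IL1RL1 at rank 5 (25.1) and BEST1 at rank 7 (20.8), with KLHDC7B still at rank 1. A level 10 times lower than in Ab or less was seen in 23 genes in NR and 25 in SP, so falls of this size were rare. The genes between the members in NR were the non-coding RP11-495P10.8, at rank 3 with a ratio at the floor of 29.5, and ENSG00000228626, at rank 5. The ratio of RP11-495P10.8 is also a bound. Without the floor it was 62.6, which put RP11-495P10.8 at rank 2 and IL1RL1 at rank 3 in NR. Below all 4 members in NR stood CALML6, at rank 7 with a ratio of 23.2. With NR 1 as the sole NR library, CALML6 was at rank 3 (43.5, a bound). STC2, a secreted glycoprotein, was at rank 8 in NR, with 925, 488 and 495 counts in NR and 14380, 19292 and 15294 in Ab, a ratio of 21.5. CHAC1, an enzyme that breaks down glutathione, followed at rank 9 with a ratio of 19.95. In SP, however, STC2 (rank 6, 20.7), CALML6 (rank 7, 20.1) and CHAC1 (rank 8, 17.3) stood above the member LINC00304. The genes named here beside the members were chosen after their values were seen.

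The comparison of NR with SP set nanorods against nanospheres, and the 4 genes were chosen as low in both groups. By the paper, the 2 particles also differed in size, supplier and measured surface charge, so shape cannot be told apart from these. That choice limits how far NR and SP could differ, so the tests below are not independent of it and show nothing about shape in general. IL1RL1 and BEST1 passed the filter on low counts and were tested. IL1RL1 was at 0.437 CPM in NR and 0.561 in SP, a log2 difference of -0.21 (SE 0.49, edgeR adjusted p = 0.901). That difference turned on single libraries, being -1.06 without NR 1, 0.0455 without NR 2, 0.163 without SP 1 and 0.459 with NR 1 as the sole NR library. BEST1 was at 0.886 CPM in NR and 0.831 in SP, a log2 difference of 0.11 (SE 0.35, edgeR adjusted p = 0.930), which was -0.0316 without NR 1, -0.0123 without NR 2 and 0.326 without NR 3. With all libraries, both differences were smaller than their errors. KLHDC7B, with 2 counts in NR and 10 in SP, and LINC00304, with 10 and 30, had too few counts for this test. With no filter beyond 1 count, KLHDC7B had a log2 difference of -1.94 (SE 1.27, edgeR adjusted p = 0.726, over 30650 genes). LINC00304 had a log2 difference of -1.30 (SE 0.65, edgeR adjusted p = 0.601). The NR and SP libraries of LINC00304 did not overlap, but neither gene passed the adjusted threshold. Across all 14903 genes tested, 0.0201% were called between NR and SP, and 9.72% had every NR library below every SP library.

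The sequences at the gene starts are shown as a description of the members. That the genes were low together was fixed by their choice. RefSeq promoters (GRCh38.p14, plus strand, from 250 bases before to 50 after the start) were found for 3 of the 4 genes, with a distal and a proximal one for IL1RL1. Capitals mark matches on either strand to the 10 motifs searched: the AP-1 motif TGANTCA, the STAT motif TTCNNNGAA, the E-box CACGTG, its variant CATGTG, the CRE motif TGACGTCA, the GC box GGGCGG, the TATA box TATAAA, the GATA motif GATAAG, the interferon response motif GAAANNGAA and the NF-kB motif GGGACTTTC.
IL1RL1 (proximal), chr2:102337007-102337306: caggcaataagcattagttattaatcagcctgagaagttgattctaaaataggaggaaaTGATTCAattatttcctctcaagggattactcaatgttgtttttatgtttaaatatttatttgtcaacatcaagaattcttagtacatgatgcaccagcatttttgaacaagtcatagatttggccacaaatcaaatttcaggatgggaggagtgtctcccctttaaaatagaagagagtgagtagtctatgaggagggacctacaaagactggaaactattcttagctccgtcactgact
IL1RL1 (distal), chr2:102311313-102311612: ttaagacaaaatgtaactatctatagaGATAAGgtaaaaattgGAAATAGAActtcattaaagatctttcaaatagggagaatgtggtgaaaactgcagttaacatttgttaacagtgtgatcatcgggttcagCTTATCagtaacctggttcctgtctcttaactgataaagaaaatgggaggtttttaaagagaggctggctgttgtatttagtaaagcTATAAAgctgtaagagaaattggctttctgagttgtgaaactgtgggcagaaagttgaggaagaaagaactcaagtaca
LINC00304, chr16:89158970-89159269: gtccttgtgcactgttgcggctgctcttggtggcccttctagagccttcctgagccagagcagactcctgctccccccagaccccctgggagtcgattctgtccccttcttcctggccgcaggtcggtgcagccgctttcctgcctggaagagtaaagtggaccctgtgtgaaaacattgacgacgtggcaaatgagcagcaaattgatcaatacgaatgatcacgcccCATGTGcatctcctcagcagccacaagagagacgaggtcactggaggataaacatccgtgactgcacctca
KLHDC7B, chr22:50545649-50545948: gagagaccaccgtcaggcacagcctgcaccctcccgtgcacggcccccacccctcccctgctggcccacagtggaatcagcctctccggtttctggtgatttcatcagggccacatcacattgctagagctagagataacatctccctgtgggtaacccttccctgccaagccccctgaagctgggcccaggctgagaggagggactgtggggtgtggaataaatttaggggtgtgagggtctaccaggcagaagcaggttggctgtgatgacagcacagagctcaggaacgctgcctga

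No motif was shared by these promoters. The matches did not overlap each other. The proximal IL1RL1 promoter held the AP-1 motif, at position -191 from the gene start, as did 7.71% of the 35116 promoters in the table. The distal IL1RL1 promoter held GATA motifs at -223 and -116, as did 6.36% of all promoters. It also held the interferon response motif (8.11% of all) and the TATA box, at -29 (11.5% of all). The LINC00304 promoter held the E-box variant, at -21 (11.1% of all), and the KLHDC7B promoter held none of the 10. The GC box, present in 45.0% of all promoters, and the STAT (7.66%), E-box (7.26%), CRE (1.85%) and NF-kB (0.387%) motifs were not in these windows. The IL1RL1 windows were 35.7% and 35.0% G and C, against a median of 58.7% over all promoters, while LINC00304 (56.3%) and KLHDC7B (59.7%) were near that median. A match is a match of letters and not a binding site.

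The 4 genes lie on 4 chromosomes, so no location was shared. In GRCh37 (GENCODE release 44), KLHDC7B is at chr22:50984328-50989452, IL1RL1 at chr2:102927962-102968497, BEST1 at chr11:61717535-61732987 and LINC00304 at chr16:89225554-89230653, all on the plus strand. Within 100 kb of them lay 43 other genes, of which 21 passed the filter. Of these, 1 was called higher and 5 lower in NR against Ab, and the same numbers in SP against Ab. Of all genes, 10.3% were lower and 12.4% higher for NR, and 10.6% and 12.6% for SP. With no filter beyond 1 count, 32 neighbours were tested, and 2 were called higher and 9 lower for NR, and 2 and 10 for SP. The shares over all genes were then 6.41% lower and 7.53% higher for NR, and 6.36% and 7.75% for SP. The median log2 change of the tested neighbours was -0.44 in NR and -0.40 in SP, against -0.0055 and -0.0067 over all genes tested.

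The neighbours called lower after the filter were spread over 3 of the 4 loci. IL18R1, which encodes a receptor chain for interleukin 18, overlaps IL1RL1 and held 4, 4 and 6 counts with nanorods, 7, 3 and 6 with nanospheres, and 28, 60 and 36 with the antibody alone. It fell by 2.84 on the log2 scale in NR (SE 0.39, edgeR adjusted p = 1.91e-07) and fell by 2.89 in SP (SE 0.38). The annotated start of IL18R1 lay 27 bp from that of IL1RL1, on the same strand. The 2 genes shared 95 exon bases, 2.11% of the IL18R1 exons. Whether IL1RL1 transcripts added to the IL18R1 counts was not tested. The other receptor genes of this cluster were not detected or near 0. IL1RL2 and IL18RAP had 0 counts in all 9 libraries, IL1R2 had at most 3, and IL1R1 had 3 to 13.
Beside KLHDC7B, ADM2, a peptide hormone of the calcitonin family, held 106, 52 and 71 counts with nanorods, 93, 68 and 60 with nanospheres, and 649, 837 and 607 with the antibody alone. It fell by 2.95 in NR (SE 0.10, edgeR adjusted p = 6.26e-20) and fell by 3.23 in SP (SE 0.12) on the log2 scale. MIOX, which degrades myo-inositol, had 0 counts in all 6 gold libraries and 9, 11 and 11 in Ab, at least 2.69-fold lower in NR and 3.38-fold lower in SP when each gold library is set at 3 counts. MIOX did not pass the filter and was chosen after its values were seen. ODF3B fell by 1.25 in NR (SE 0.23) and fell by 1.04 in SP (SE 0.20), and missed the 2-fold minimum without NR 1, without SP 1 or without Ab 3.
CHKB, choline kinase beta, had 0 to 4 counts in gold and 11 to 13 in Ab and was called lower in both, but 72.5% of its exons are shared with a read-through gene. Its log2 change in NR was -1.89, and -2.08 to -1.67 with single libraries left out. It was not called with NR 1 as the sole NR library, but that fit has no spread within NR and decides nothing. In SP all 3 libraries of CHKB were at or under the floor, with 3, 0 and 2 counts, so no fitted change is given. The fold of Ab over SP was 3.92 with each SP library set at 3 counts, and the ratio of summed counts was 7.01 (95% exact interval 2.74 to 22.9). ARSA, the lysosomal arylsulfatase A, rose by 1.08 in NR and by 1.05 in SP, and missed the 2-fold minimum without SP 1 (0.98).
Beside BEST1, RAB3IL1, an exchange factor for RAB GTPases, held between 189 and 395 counts with nanorods, 321 and 389 with nanospheres, and 814 and 1010 with the antibody alone. It fell by 1.49 in NR (SE 0.08, edgeR adjusted p = 5.09e-16) and fell by 1.34 in SP (SE 0.08). FTH1, which overlaps BEST1, had log2 changes of -0.25 in NR and -0.39 in SP, short of 2-fold. ACSF3, the mitochondrial malonyl-CoA synthetase gene that overlaps LINC00304, had log2 changes of -0.48 and -0.45. CDH15, the nearest tested gene after LINC00304, had 6 to 24 counts and log2 changes of -0.05 and 0.05. No neighbour of LINC00304 that passed the filter was called in either comparison. Without the filter, LINC02138 beside it was called lower in both, with 0 counts in every gold library and only 3, 5 and 1 in Ab. LINC02138 was chosen after its values were seen.

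IL33, the ligand of ST2, had 0 to 3 counts in gold and 0, 1 and 7 in Ab, too few for a test. IL1RAP, the co-receptor, held between 196 and 439 counts in every library, with log2 changes of -0.05 in NR (SE 0.10) and 0.00 in SP (SE 0.10). Of the 22 genes listed for ST2 signaling without IL1RL1, 21 were tested, and 0 were called in NR and 1 in SP, lower. Over all genes, 10.3% were lower and 12.4% higher for NR, and 10.6% and 12.6% for SP. Without a fold minimum, 14 of them in NR and 15 in SP passed the adjusted p (edgeR), as did 72.7% and 73.0% of all genes tested. An unadjusted p under 0.05 was found for 15 in each, and for 74.5% and 74.6% of all genes. DESeq2 also called 0 in NR. The gene called in SP was IRAK2, a kinase downstream of MyD88, with 438 to 566 counts in SP and 1034 to 1317 in Ab. It fell by 1.14 in SP (SE 0.08, edgeR adjusted p = 1.04e-12) and its log2 change in NR was -0.90 (SE 0.07). The median log2 change of the list was -0.11 in NR and -0.16 in SP.

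Of 21 other ligands and receptors of the interleukin 1 family, 7 were tested. IL1B, the ligand interleukin 1 beta, rose by 2.06 on the log2 scale in NR (SE 0.20) and by 2.57 in SP (SE 0.21), from 28, 27 and 24 counts in Ab to 131, 70 and 80 in NR. IL18BP, which binds and blocks interleukin 18, fell by 1.75 in NR (SE 0.13) and fell by 1.90 in SP (SE 0.13), and IL18R1 fell as above. Both comparisons thus held 1 member called higher and 2 lower. The shares of all genes were 12.4% higher and 10.3% lower for NR, and 12.6% and 10.6% for SP. Beside these, 4 tested members were not called, and the list's median log2 change was -0.05 in NR and -0.0020 in SP.

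The chloride channels moved in both directions. Of 36 listed beside BEST1, 21 were tested, and the NR comparison called 5 higher and 1 lower. The SP comparison called 5 higher and 3 lower. The background for these counts is the 12.4% of all genes called higher and 10.3% called lower in NR, and the 12.6% and 10.6% in SP. CLIC3, of the chloride intracellular channel family, had 81 to 170 counts in gold and 8, 9 and 10 in Ab, and rose by 3.92 in NR (SE 0.24) and 3.96 in SP (SE 0.23). TTYH3, a member of the tweety family, rose by 1.73 in NR (SE 0.05) and 1.80 in SP (SE 0.06). The anoctamins ANO10 and ANO2 rose by 1.20 and 1.10 in NR, whereas ANO8 fell by 1.08 in NR and fell by 1.10 in SP. CLCN4, a chloride and proton exchanger, had log2 changes of 0.73 in NR, not called, and 1.07 in SP, called but not without SP 1 (0.96). Without SP 1, 5 rather than 8 of the list were called in SP.
Of the other bestrophins, BEST2 had at most 1 count. BEST3 was not tested against Ab for low counts, and held 23, 6 and 10 counts with nanorods, 12, 9 and 9 with nanospheres, and 1, 6 and 2 with the antibody alone. Its mean levels were 0.652 CPM in NR, 0.461 in SP and 0.124 in Ab, whereas BEST1 was highest in Ab, and this was not tested. BEST4 had 6 to 11 counts in gold and 16, 17 and 21 in Ab, with log2 changes of -0.98 in NR, not called, and -1.04 in SP (edgeR adjusted p = 0.0220). BEST2, BEST3 and BEST4 were chosen after their values were seen.

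KLHDC7A, the kelch gene named alongside KLHDC7B, showed the reverse of its pattern. It held 121, 70 and 104 counts with nanorods, 164, 164 and 123 with nanospheres, and 1, 0 and 0 with the antibody alone. The 295 counts in NR against 1 in Ab gave a ratio of 356 with a 95% exact interval of 63.4 to 14112, and 39.7 with each Ab library set at 3 counts. For SP the ratio was 463 (82.7 to 18341), and 50.4 with Ab at 3 counts. KLHDC9 also rose, by 1.53 in NR (SE 0.23) and 1.70 in SP (SE 0.22). KLHDC1, with 3 to 14 counts in gold and 11, 17 and 24 in Ab, was called lower in NR with a log2 change of -1.30 (SE 0.45, edgeR adjusted p = 0.0123). That call was lost without NR 2 (0.0537), NR 3 (0.0659) or Ab 3 (0.108), each value being an edgeR adjusted p. KLHDC1 was also not called with NR 1 as the sole NR library, but that fit has no spread within NR and decides nothing. Of the 9 kelch genes listed beside KLHDC7B, 8 were tested, and KLHDC7A and KLHDC9 were the genes called higher in both comparisons. KLHDC1 was called lower in NR and no gene of the list was called lower in SP. The shares over all genes were 12.4% higher and 10.3% lower for NR, and 12.6% and 10.6% for SP.

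Of 12 transcription factors known for control of BEST1 or IL1RL1, 7 were tested against Ab. LHX2, a homeodomain factor, had 58, 79 and 63 counts in Ab and 187, 105 and 121 in NR. It rose by 1.29 in NR (SE 0.15) and 1.21 in SP (SE 0.15), and was the sole call in both, where 12.4% and 12.6% of all genes were called higher. MITF, the best known activator of BEST1, had a log2 change of 0.96 in NR and 0.98 in SP, just short of 2-fold, and GATA2, known for IL1RL1 in mast cells, had -0.87 and -0.78. The number called was 2 without NR 1, and in SP it was 2 without Ab 2 and 3 without SP 3. OTX2 and CRX had at most 2 counts. MITF, GATA2, OTX2 and CRX were chosen after their values were seen. Between NR and SP, 0 genes of any of these lists were called by edgeR, and 4, 1, 2, 2 and 0 had an unadjusted p under 0.05 in the lists for ST2 signaling, the interleukin 1 family, chloride channels, kelch genes and regulators, as did 12.9% of all genes tested.

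A stricter on-off shape was also counted. Of all genes, 16 had at most 3 counts in each of the 6 gold libraries and at least 10 in every Ab library, and none of the 4 chosen genes met this, since each had a gold library above 3 counts. With at least 20 counts in every Ab library, there was 1 gene, FGF21, a hormone of the fibroblast growth factor family. FGF21 held 1, 0 and 0 counts with nanorods, 0, 1 and 0 with nanospheres, and 37, 49 and 51 with the antibody alone, a ratio of 114 over NR (95% exact interval 20.03 to 4515). With each gold library set at 3 counts, the fold was 11.9 over NR and 14.9 over SP. The next by Ab level were CCDC154, ENSG00000262172, PDE7B-AS1, DHDH, ENSG00000255916, TMEM249, SGSM2-AS1, MUC6 and ENSG00000260949. CCDC154 had 31, 31 and 14 counts in Ab and MUC6, a gastric gland mucin, had 12, 23 and 17. The reverse shape, at most 3 counts in Ab and at least 10 in every gold library, was seen in 56 genes.

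Likeness over all 9 libraries was measured as Pearson's r of log2(CPM + 1) among 14837 genes, and is a description, since all points share the Ab libraries and the scaling. The genes most like KLHDC7B were KCMF1 (r = 0.998), RRN3 (0.998) and the non-coding RP11-495P10.8 (0.998). For IL1RL1 they were the small nucleolar RNA host SNHG1 (0.998), STX16 (0.998) and the cytokine LIF (0.998). For BEST1 they were PDE2A (0.999), the glutamine transporter SLC1A5 (0.999) and CEACAM19 (0.999), and for LINC00304 they were RXRA (0.998), C8orf58 (0.997) and PLAGL2 (0.997). RP11-495P10.8 was also close to 0 with gold, with 1, 2 and 1 counts in NR, 4, 5 and 4 counts in SP, and 97, 149 and 100 counts with the antibody alone. In NR the others named here had smaller falls than any of the 4 genes. In NR the log2 change was -2.20 for SLC1A5, -2.29 for LIF and -1.26 for KCMF1. Among themselves the 4 genes had r of 0.984 to 0.996. Their choice as low in gold and high in Ab largely fixed these values, so they show no link between the genes. The closest partner was BEST1 for KLHDC7B, at rank 71 of the genes like KLHDC7B.

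The labelled cell type was checked by markers. Of 6 epithelial markers, KRT8 was the most abundant, with 13029 counts or more in every library, and KRT19 had at most 1 count. The summed epithelial level was 2266 to 2408 CPM in gold and 891 to 960 in Ab, and was carried by KRT8, at 1894 CPM in NR, 1982 in SP and 648 in Ab. Of these 6 markers, KRT8 and EPCAM were called higher in both gold groups, beside 12.4% of all genes in NR and 12.6% in SP. KRT18, with log2 changes of 0.57 in NR and 0.53 in SP, CLDN4 (0.09 in both) and CLDN7 (-0.13 and -0.17) were not called. Mast cell genes other than KIT and HDC, namely TPSAB1, TPSB2, CPA3 and MS4A2, had at most 1 count, and all 4 markers of the retinal pigment epithelium were at or under 3 counts in every library. Endothelial markers summed to 21.0 to 24.1 CPM in gold and 3.74 to 5.16 in Ab, with CDH5 the most abundant. Of the 5 listed, 4 were matched. CDH5 and VWF were called higher in both gold groups, beside 12.4% of all genes in NR and 12.6% in SP. VWF had 0, 0 and 1 counts in Ab. TIE1 and CLDN5 had at most 4 counts in any library and were not tested. Fibroblast markers summed to 105 to 119 CPM in gold and 17.8 to 45.4 in Ab, with COL1A1 the most abundant. Of these 6 markers, DCN, LUM and PDGFRB were called higher in both gold groups, by 4.65 to 5.35 on the log2 scale, and the other 3 were not called. The share of all genes called higher was again 12.4% in NR and 12.6% in SP. COL1A1 had log2 changes of 0.63 in NR and 0.72 in SP, whereas COL1A2 was at 0.482 CPM in NR, 2.16 in SP and 7.40 in Ab. Ab 3 was low among the Ab libraries in COL1A2, as above, and in COL3A1, with 11 counts against 72 and 73. Mitochondrial genes took 4.36% to 4.66% of counts in gold and 3.41% to 3.71% in Ab. The part of these levels in the results was not tested.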

How the data were processed

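Poly-A RNA of SNU5 cells was sequenced as paired-end reads. The authors discarded reads with adapter, unknown bases or low quality, aligned the rest with HISAT2 2.1.0 and counted them per gene. The deposited values are whole read counts, not scaled between libraries. The paper's reporting summary names hg19, and the submitters' processing notes name mm9. The IDs are human Ensembl IDs, of which 59858 of 60880 were found in GENCODE release 44 for GRCh37. Versions were dropped from IDs, and the 1022 others held at most 0.115% of counts. Annotation release and strand setting are not given in the sources used here.

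Groups were compared pairwise, on the 6 libraries concerned, by the quasi-likelihood test of edgeR 4.0.16 (R 4.3.3, robust fit, TMM, filterByExpr with a minimum count of 10 and total of 15). The p-values were adjusted by Benjamini-Hochberg across the 15009, 15068 or 14903 genes tested. Calls needed an adjusted p of at most 0.05 and 2-fold. CPM used TMM-scaled totals, except for the likeness and the range given for the floor, which used plain library totals. DESeq2 1.42.0, other scalings, filters, folds and samples were tried. On simulated counts with 200 genes changed, 100%, 100% and 99.5% were recovered for NR against Ab, SP against Ab and NR against SP. The chi-square per gene between 2 libraries of 1 group was 1.84 to 7.44, above sampling noise. The members and lists were chosen with earlier results of these data known. Named are the members, called genes of each list (up to 6), the interleukin 1 receptor genes, the neighbours nearest, overlapping or called, the 10 genes highest in Ab among those at or under 3 counts in gold, and the 3 genes most like each member. Counting intervals assume independent reads. Python 3.11.15 with pandas 2.3.3 and scipy 1.17.1 was used. A list of leukocyte markers is not reported here.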

Additional observations from a re-analysis of the deposited data

How the results depend on the processing

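Folds of the 4 genes moved little with scaling. Leaving out single libraries gave 46.5 to 61.5 for KLHDC7B over NR at the floor and 43.6 to 69.7 over SP, 35.9 to 74.3 and 27.3 to 45.9 for IL1RL1, 20.1 to 26.7 and 24.5 to 26.9 for BEST1, and 21.3 to 50.2 and 11.2 to 12.5 for LINC00304. With NR 1 as the sole NR library, an alternative chosen after seeing the data, KLHDC7B gave 79.9.

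Genes called in NR against Ab numbered 3409, with 10916 without a fold minimum and 6348 at 1.5-fold, and in SP against Ab 3502, with 11002 and 6385. In NR against SP, 3 genes were called, 0 with DESeq2, 27 with no filter beyond 1 count, 66 without a fold minimum and 5 at 1.5-fold, and 0 (without NR 2) to 28 (without NR 1) with single libraries left out. With libraries left out in turn, NR against Ab gave 3511 to 3634 and SP against Ab 3620 to 3718.

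Signs turned in the following values, none of them called. IL1RAP in SP gave 0.0026 with DESeq2, 0.0009 with RLE, 0.0045 with no filter, and 0.0254 to 0.0836 without SP 1 or Ab 2, with -0.0827 as the lowest without a library. In NR it gave -0.134 to 0.0351 with a library left out. With a library left out, CDH15 gave -0.173 to 0.207 in NR, turning without NR 1, and -0.870 to 0.356 in SP, turning without SP 1. IL1RL1 in NR against SP gave -1.06 without NR 1, 0.0455 without NR 2, 0.163 without SP 1 and 0.459 with NR 1 as the sole NR library, and BEST1 gave -0.0316 without NR 1, -0.0123 without NR 2 and at most 0.326. The cause was not tested. The regulators and chloride channels moved as given above. With a window of 250 kb, 9 neighbours were called in NR and 8 in SP. Of all genes, 10.3% were called lower and 12.4% higher in NR, and 10.6% and 12.6% in SP. The number tested in that window is not given here, so its counts are not read against these shares. With no filter, 11 of the 32 neighbours tested within 100 kb were called in NR and 12 in SP, with the shares of all genes given above.

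With the replicate number as a block, 3414, 3493 and 4 genes were called in NR against Ab, SP against Ab and NR against SP, and IL1RAP in SP gave 0.0046 and CDH15 -0.0679. The numbers did not pair the samples, since deviations of same-numbered libraries correlated at -0.032 to 0.028. The block changed the call of no gene or list named. The NR against SP comparison of the members is also limited, since 2 of them had too few counts for it.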
